A study of Mus musculus with 6 samples.

Results

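The guanylate-binding proteins (Gbp) are a family of large interferon-inducible GTPases, and their transcripts were examined here in hematopoietic stem cells (HSCs) of mice labelled WT and IRF1 knockout. Members were taken by name as the genes with the symbols Gbp2 to Gbp11, and 10 of 10 were found among the 26264 genes of the expression table. All 10 members had a mean normalized count of at least 10 over the 6 libraries, the minimum for testing, which 17404 genes met. Gbp2b, also known as Gbp1, was the 1 other gene of the table with a Gbp symbol and was not counted as a member.

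HSCs were sorted from bone marrow as Lineage−Sca1+cKit+ (LSK) CD150+ CD48− cells, and bulk RNA-seq libraries were made with the SMART-Seq v4 kit. WT mice were C57Bl/6, and *Irf1-/-* mice carried the B6.129S2-Irf1 tm1Mak/J allele in the whole body. The 3 WT and 3 *Irf1-/-* mice were untreated females 8 weeks of age, with 1 library per mouse, and both genotypes carried replicate numbers 2, 3 and 4. Because every cell of the *Irf1-/-* mice carried the allele, changes within HSCs and changes in the cells around them cannot be told apart. Whether the RNA-seq mice were littermates is not given in the sources used here. The values of a genotype are listed in the order of replicates 2, 3 and 4. Reads counted on genes were 43138521, 57281017 and 45129929 in *Irf1-/-* libraries and 59658080, 45332573 and 43267486 in WT libraries. At these depths, 1 read was worth between 0.823 and 1.13 normalized counts, and the libraries held no molecular identifiers, so read numbers include PCR copies.

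The label of the cells was checked against marker genes. Kit, the stem cell factor receptor, had normalized counts of 77902, 88715 and 79909 in *Irf1-/-* HSCs and 83185, 84044 and 80517 in WT HSCs. Ly6a (the gene for Sca1), Slamf1 (the gene for CD150) and Procr were also counted in all 6 libraries. Ly6a had normalized counts of 4974, 6047 and 5376 in *Irf1-/-* HSCs and 6908, 7439 and 7692 in WT HSCs, and its log2 fold change (*Irf1-/-* minus WT) was −0.43 (limma adjusted p = 0.0245). Procr had 5423, 6456 and 5866 normalized counts in *Irf1-/-* HSCs and 4487, 3754 and 4147 in WT HSCs, with a log2 fold change of 0.52 (limma adjusted p = 0.0112). Both changes were under the log2 fold threshold of 0.58 used for calls, which Procr just passed without WT replicate 2 (0.58, limma adjusted p = 0.0149). The limma adjusted p of Ly6a was above 0.05 without *Irf1-/-* replicate 2 (0.115), *Irf1-/-* replicate 4 (0.112) or WT replicate 3 (0.0786), and without the intensity trend it was 0.262 for Ly6a and 0.227 for Procr. The genotypes did not overlap for either gene, with Ly6a lower and Procr higher in *Irf1-/-* HSCs. WT replicate 4 stood apart in neutrophil markers. Its 7 neutrophil markers summed to 5340.2 normalized counts, whereas the other 2 WT libraries held 372 and 337 and the *Irf1-/-* libraries 466, 448 and 803.

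Gbp proteins bind and hydrolyze guanine nucleotides, assemble on the membranes of vacuoles that hold pathogens and on bacteria in the cytosol, and help to break these compartments open and to activate inflammasomes. Their transcription is induced by IFN-γ through gamma-activated sites and through IRF elements, the latter bound by IRF1, which IFN-γ also induces. HSCs carry receptors for IFN-γ, and interferons are known to alter their cycling and self-renewal. Mouse Gbp genes lie in clusters on chromosome 3 (Gbp2, Gbp3, Gbp5 and Gbp7 among the members) and chromosome 5 (Gbp4, Gbp6, Gbp8, Gbp9, Gbp10 and Gbp11).

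The targeted gene, Irf1, gave 9267, 9524 and 9287 normalized counts in *Irf1-/-* HSCs and 10122, 11119.6 and 12057.5 in WT HSCs. Every *Irf1-/-* library was below every WT library, but reads on the gene were counted at 84.3% of the WT mean. The log2 fold change (*Irf1-/-* minus WT, on log2 of the normalized count plus 1) was −0.24 ± 0.09 (SE), with a 95% interval of −0.43 to −0.05 and a limma Benjamini-Hochberg adjusted p of 0.17. Counts were summed over the whole gene and do not show which exons were read, so they do not check the genotype labels, and the groups are named by those labels.

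Gbp transcripts were lower in *Irf1-/-* HSCs than in WT HSCs. A gene was called when its limma adjusted p was under 0.05 and its log2 fold change was above 0.58 in size. By this rule 8 of 10 members were lower in *Irf1-/-* HSCs, beside 166 of 17404 tested genes (0.954%). No member was called higher by limma (0 of 10, beside 0.96% of tested genes), and 0 were higher at an unadjusted p under 0.05, by edgeR or by DESeq2. All 10 members were lower at an unadjusted p under 0.05, beside 1404 of 17404 tested genes (8.07%), while 1459 tested genes were higher at that p. With the adjusted p alone, 9 of 10 members were lower, beside 1.49% of tested genes. Count models on whole reads recovered from the normalized values also called 8 of 10 members lower, beside 0.931% of genes with edgeR and 0.856% with DESeq2. In all 10 members every *Irf1-/-* library was below every WT library, a separation seen in 9.27% of tested genes. For each single member the exact two-sided permutation p was 0.1, the smallest that 3 against 3 libraries can give. The median log2 fold change was −1.43 over the 10 members and −0.00 over all tested genes. Gbp members were lower under every scaling tried, the deposited one, quantile normalization and median centring. Leaving out 1 library in turn left 6 to 8 members called lower, beside 105 genes in all without WT replicate 3 and 265 without WT replicate 4. Limma without its intensity trend called 3 members (Gbp2, Gbp8 and Gbp10) and 33 genes lower. Its adjusted p was then 0.214 for Gbp3, 0.0597 for Gbp4, 0.168 for Gbp6, 0.346 for Gbp9 and 0.317 for Gbp11. In bulk HSC libraries, fewer cells expressing a Gbp gene and less Gbp RNA per cell cannot be told apart.

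**Figure D1:**
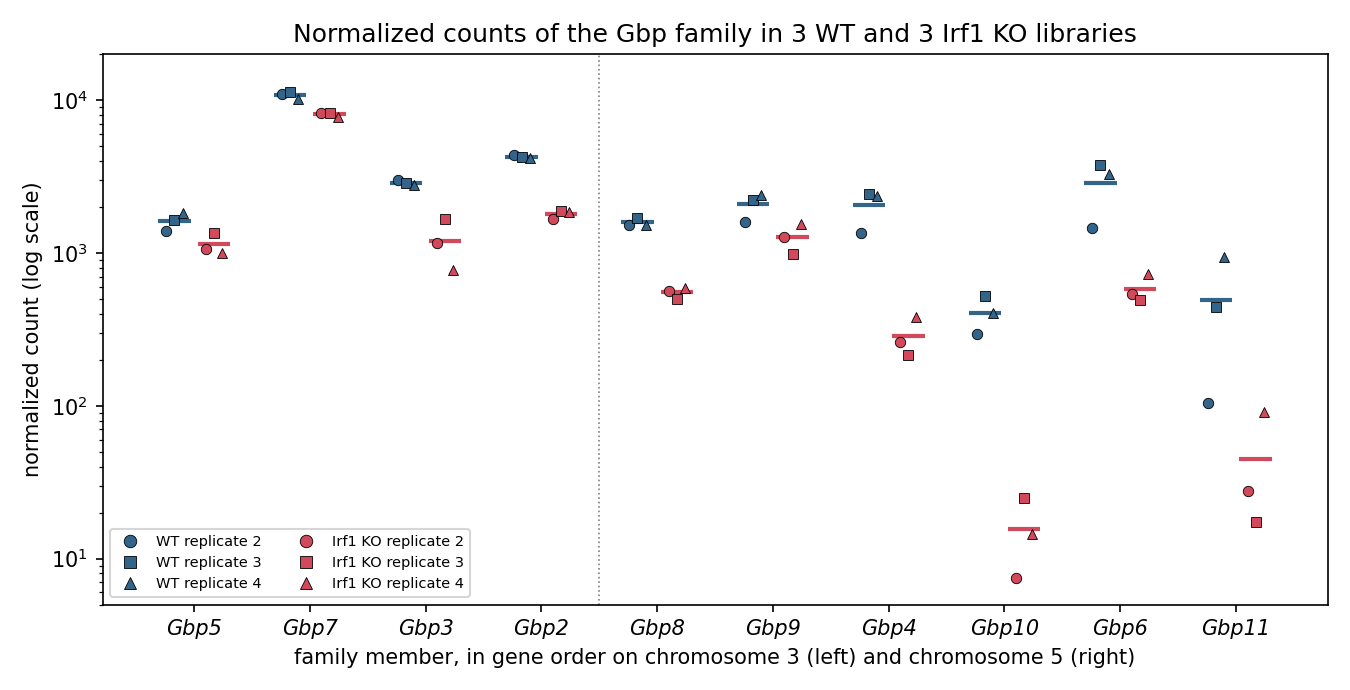
Normalized counts (log axis) of the 10 Gbp members in each of the 3 *Irf1-/-* and 3 WT libraries, with a bar at each group mean. Every *Irf1-/-* library lies below every WT library for all 10 members, with the widest gap for Gbp10.

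Among the chromosome 3 members, Gbp2 and Gbp5 end in a prenylation motif that anchors them in membranes. Gbp2, which coats the vacuole of Toxoplasma gondii, had normalized counts of 1653, 1878 and 1847 in *Irf1-/-* HSCs and 4379, 4209 and 4187 in WT HSCs. Replicates of Gbp2 lay close together within each genotype, and the groups were far apart. The *Irf1-/-* mean of 1793 ± 122 (SD, n = 3) was 42.1% of the WT mean of 4258 ± 105 (SD, n = 3). Its log2 fold change was −1.25 ± 0.09 (SE, limma adjusted p = 3.01e-06).

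Gbp5, which promotes assembly of the NLRP3 inflammasome, had normalized counts of 1059, 1358 and 993 in *Irf1-/-* HSCs and 1382, 1633 and 1826 in WT HSCs. The groups did not overlap, but the highest *Irf1-/-* value, from replicate 3, lay just under the lowest WT value, from replicate 2. Gbp5 was not called. Its log2 fold change was −0.51 ± 0.14 (SE), with a 95% interval of −0.82 to −0.20 and a limma adjusted p of 0.0750. Without *Irf1-/-* replicate 3, Gbp5 passed both thresholds, at −0.64 and a limma adjusted p of 0.0329. Over all alternatives the adjusted p of Gbp5 ranged from 0.0138 to 0.347.

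Gbp3 and Gbp7 are the other members of the chromosome 3 cluster. Gbp3 had normalized counts of 1168, 1666 and 769 in *Irf1-/-* HSCs and 3012, 2847 and 2779 in WT HSCs. Its WT libraries were close together, while the *Irf1-/-* libraries spread 2.17-fold. The Gbp3 log2 fold change was −1.33 ± 0.20 (SE, limma adjusted p = 0.00222). Gbp7, which has been linked to assembly of the phagocyte NADPH oxidase, had normalized counts of 8275, 8219 and 7718 in *Irf1-/-* HSCs and 10967, 11198.5 and 10222 in WT HSCs. The difference was small but exceeded the spread within either genotype. Its log2 fold change of −0.42 ± 0.08 (SE) had a limma adjusted p of 0.0138 and a 95% interval of −0.60 to −0.24. Gbp7 was therefore not called, because the fold was under the threshold. Its limma adjusted p was above 0.05 without *Irf1-/-* replicate 4 (0.105), WT replicate 2 (0.0733) or WT replicate 3 (0.0536) and without the intensity trend (0.202). DESeq2 gave adjusted p-values of 0.0138 for Gbp5 and 9.77e-05 for Gbp7, with log2 fold changes of −0.50 and −0.42, also under the fold threshold.

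Gbp2b, which lies in the same cluster, was counted at a low level. Its reads were 19, 4 and 49 in *Irf1-/-* HSCs and 41, 23 and 35 in WT HSCs, equal to 20.3, 3.46 and 50.9 and to 33.7, 25.9 and 37.7 normalized counts. The groups overlapped, and the highest and lowest libraries were both *Irf1-/-*. Its log2 fold change was −0.96 with a 95% interval of −2.61 to 0.69 (limma adjusted p = 0.620), and it was 0.01 without *Irf1-/-* replicate 3.

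All 6 chromosome 5 members were called lower, with a median log2 fold change of −2.51, while 2 of 4 chromosome 3 members were called, with a median of −0.88. A difference between the clusters was not tested. Gbp4, described as a brake on IRF7 signaling, had normalized counts of 262, 214 and 379.9 in *Irf1-/-* HSCs and 1348, 2442 and 2346 in WT HSCs. WT replicate 2 was the low WT library, yet it was still far above the highest *Irf1-/-* library. Gbp4 in *Irf1-/-* HSCs averaged 14.0% of its WT level, and its log2 fold change was −2.83 ± 0.24 (SE, limma adjusted p = 8.72e-06).

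Gbp6 and Gbp10, both linked to defense against mycobacteria, are nearly identical genes. Gbp6 had normalized counts of 536, 489 and 727 in *Irf1-/-* HSCs and 1461, 3775 and 3299 in WT HSCs. As with Gbp4, WT replicate 2 was low among WT libraries, and the groups were apart. The log2 fold change of Gbp6 was −2.19 ± 0.27 (SE, limma adjusted p = 0.000433). Gbp10 was nearly lost from *Irf1-/-* HSCs, where it had 7, 29 and 14 reads, against 359, 463 and 376 reads in WT HSCs. In normalized counts these were 7.46, 25.1 and 14.5 in *Irf1-/-* HSCs and 295, 522 and 404 in WT HSCs. The *Irf1-/-* mean was 26.0-fold lower, or 3.85% of the WT mean, the lowest share of any member. Its log2 fold change was −4.72 ± 0.43 (SE, limma adjusted p = 2.29e-05).

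Reads that fit both genes make the division between Gbp6 and Gbp10 uncertain. In GENCODE vM1 transcripts, 65.9% of the 100-base windows of Gbp6 and 66.2% of those of Gbp10 were found letter for letter in a transcript of another gene, nearly all of them in each other. How shared reads and strand were handled in counting is not given in the sources used here. Summed over both genes, normalized counts were 544, 514 and 741 in *Irf1-/-* HSCs and 1757, 4297 and 3704 in WT HSCs. The sum, which does not depend on how counted reads were divided between this pair, was apart between genotypes, with the *Irf1-/-* libraries averaging 18.4% of WT. Sharing was 10.8% for Gbp11 and at most 3.81% for each of the other members. Over aligned coding bases, the 15 pairs of chromosome 5 members were 90.2% to 98.4% identical, the latter for Gbp6 and Gbp10. The 6 chromosome 3 pairs were 64.8% to 78.5% identical.

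Gbp8 was the chromosome 5 member with the smallest spread among replicates. Its normalized counts were 565, 502 and 587 in *Irf1-/-* HSCs and 1524, 1703 and 1522 in WT HSCs. The groups were well apart, and no library departed from its group. Gbp8 had a log2 fold change of −1.52 ± 0.13 (SE, limma adjusted p = 8.82e-06). Gbp9 had normalized counts of 1279, 987 and 1547 in *Irf1-/-* HSCs and 1592, 2225 and 2408 in WT HSCs. The highest *Irf1-/-* library, replicate 4, nearly met the lowest WT library, replicate 2. Its log2 fold change was −0.71 ± 0.17 (SE, limma adjusted p = 0.0407). The call for Gbp9 was lost without *Irf1-/-* replicate 2 (limma adjusted p = 0.121), *Irf1-/-* replicate 3 (0.116), WT replicate 3 (0.148) or WT replicate 4 (0.0793), and under quantile normalization (0.0659). Over all alternatives the adjusted p of Gbp9 ranged from 0.00146 to 0.346.

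Gbp11 varied most within each genotype. It had normalized counts of 27.7, 17.3 and 90.3 in *Irf1-/-* HSCs and 104, 439.5 and 936 in WT HSCs. The highest WT library, replicate 4, was 9.03-fold above the lowest, replicate 2, which in turn was only slightly above *Irf1-/-* replicate 4. The log2 fold change of Gbp11 was −3.27 ± 0.68 (SE), with a 95% interval of −4.73 to −1.81 and a limma adjusted p of 0.0183. Its call was lost without *Irf1-/-* replicate 2 (limma adjusted p = 0.0883), *Irf1-/-* replicate 3 (0.0653) or WT replicate 3 (0.0742), and the range over all alternatives was 1.76e-05 to 0.317. The Gbp11 log2 fold change was −4.14 without WT replicate 2, −3.94 without *Irf1-/-* replicate 4 and −2.56 without WT replicate 4.

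**Figure D2:**
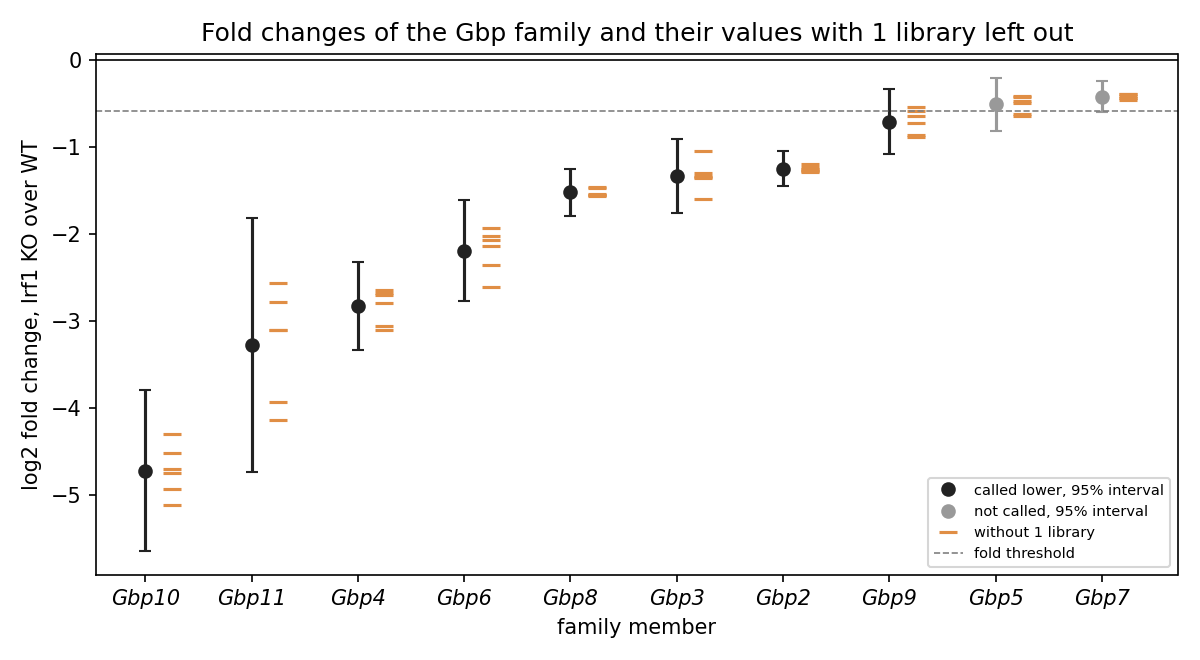
Log2 fold changes (*Irf1-/-* minus WT) of the 10 Gbp members as points with 95% limma intervals (black, called lower, and gray, not called), short orange dashes for the values with 1 library left out, and a dashed line at the fold threshold. All intervals lie below 0, and the points run from −0.42 for Gbp7 to −4.72 for Gbp10.

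Levels were compared between members per kilobase of the longest GENCODE vM1 transcript. In WT HSCs, Gbp7 led at a mean of 1946 normalized counts per kb, followed by Gbp2 at 1692 and Gbp3 at 1073, and the libraries of these genes did not overlap. The next members, from Gbp6 (660 ± 283, SD, n = 3) through Gbp8, Gbp9, Gbp4, Gbp5 and Gbp11 to Gbp10 (96.2 ± 26.7), each overlapped the member after them. In *Irf1-/-* HSCs, Gbp7 (1455), Gbp2 (713) and Gbp3 (448) also had the highest mean levels per kb. Below them the order was Gbp9 (349.8), Gbp5 (296), Gbp8 (224), Gbp6 (135), Gbp4 (62.9), Gbp11 (33.9) and Gbp10 (3.70). Gbp3 overlapped Gbp9, Gbp9 overlapped Gbp5, and Gbp4 overlapped Gbp11, while the other neighbors in this order were apart. The reference model of Gbp11 holds coding sequence only, 1329 bases, so its level per kb is less comparable. Read sharing between Gbp6 and Gbp10 leaves their levels per kb, and their places in both orders, uncertain.

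Gbp7 made up a larger share of Gbp transcripts in *Irf1-/-* HSCs. It took 40.9%, 38.4% and 38.0% of the summed level per kb in *Irf1-/-* libraries and 28.1%, 24.2% and 22.0% in WT libraries. The genotypes did not overlap in this share. The family as a whole summed to 14833, 15355 and 14672.5 normalized counts in *Irf1-/-* HSCs and to 26065, 30993 and 29929.6 in WT HSCs, or 51.6% of the WT mean for the *Irf1-/-* mean. Without Gbp7, the sums were 6558, 7136 and 6954 in *Irf1-/-* HSCs and 15098, 19795 and 19707 in WT HSCs, or 37.8% of the WT mean.

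Members differed in which library was high or low within a genotype. WT replicate 2 was the lowest WT library for 6 of 10 members (Gbp4, Gbp5, Gbp6, Gbp9, Gbp10 and Gbp11), and WT replicate 4 for the other 4. In *Irf1-/-* HSCs, replicate 4 was highest for 5 members (Gbp4, Gbp6, Gbp8, Gbp9 and Gbp11), and replicate 3 for 4 members (Gbp2, Gbp3, Gbp5 and Gbp10). Gbp4, Gbp6, Gbp9 and Gbp11 shared one pattern, in which *Irf1-/-* replicate 4 was high, *Irf1-/-* replicate 3 was low and WT replicate 2 was low. Gbp3 and Gbp5 ran the other way in *Irf1-/-* HSCs, with replicate 3 highest and replicate 4 lowest. Over all 6 libraries, Pearson correlations of log2 values between the 45 pairs of members ran from 0.52 for Gbp3 and Gbp9 to 0.99 for Gbp2 and Gbp10, with a median of 0.90. These correlations include the difference between genotypes, which all members share.

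The genes beside the Gbp clusters were read next. In the gene order of RefSeq, 12 genes are the nearest outside the family, 3 on each side of each cluster, and 4 of them were tested. None was called by limma (0 of 4), and 0 had an unadjusted p under 0.05 or were called by edgeR or DESeq2. Beside the chromosome 3 cluster, log2 fold changes were −0.16 for Pdlim5 (limma adjusted p = 0.617), −0.17 for Kyat3 (0.553) and −0.12 for Gtf2b (0.575). Beside the chromosome 5 cluster, Abcg3 had −0.19 (limma adjusted p = 0.522).

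Promoter sequences were read for the members, since they were lower together. RefSeq windows (GRCm38.p6, 250 bases before to 50 after the start) were found for 4 of 10 members, Gbp2, Gbp3, Gbp5 and Gbp7, with 5 windows in all. Both strands were searched for 2 copies of GAAA with any 2 bases between them (IRF element) and for TTCNNNGAA (gamma-activated site). An IRF element match was present in a window of each of these 4 genes, beside 1131 of 32851 promoter windows (3.44%). The window of Gbp2b, chr3:142594597-142594896 on the plus strand, also held an IRF element match, 137 to 128 bases before the start, and no gamma-activated site match. Gamma-activated site matches were found in Gbp5 and Gbp7, beside 2726 windows (8.30%), and 149 windows (0.454%) held both. All the IRF matches read GAAA on the strand opposite to the gene, so they appear here as TTTC copies. In Gbp2 the match lay 59 to 50 bases before the start. In Gbp3 a pair of matches overlapped, from 45 to 30 bases before the start, and a second Gbp3 window at chr3:142560106-142560405 held none. In Gbp7 the IRF match lay 53 to 44 bases before the start, with gamma-activated site matches at 106 to 98 and 87 to 79 bases. In Gbp5 it lay farther out, at 165 to 156 bases, with gamma-activated site matches at 245 to 237 and 52 to 44 bases. Gbp2 and Gbp3, both called, had no gamma-activated site match in these windows, and Gbp5 and Gbp7, which were not called, had both motifs. These are letter matches only, and binding was not measured. The windows, all on the plus strand, are printed 5′ to 3′ with motif matches in capitals, at chr3:142620413-142620712 (Gbp2), chr3:142559794-142560093 (Gbp3), chr3:142496684-142496983 (Gbp5) and chr3:142530086-142530385 (Gbp7).
Gbp2: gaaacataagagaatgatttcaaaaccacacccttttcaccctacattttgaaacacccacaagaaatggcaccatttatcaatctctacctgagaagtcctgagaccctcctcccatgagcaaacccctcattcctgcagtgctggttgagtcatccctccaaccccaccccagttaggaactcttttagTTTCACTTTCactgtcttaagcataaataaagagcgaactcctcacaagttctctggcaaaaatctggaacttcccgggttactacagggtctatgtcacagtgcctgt
Gbp3: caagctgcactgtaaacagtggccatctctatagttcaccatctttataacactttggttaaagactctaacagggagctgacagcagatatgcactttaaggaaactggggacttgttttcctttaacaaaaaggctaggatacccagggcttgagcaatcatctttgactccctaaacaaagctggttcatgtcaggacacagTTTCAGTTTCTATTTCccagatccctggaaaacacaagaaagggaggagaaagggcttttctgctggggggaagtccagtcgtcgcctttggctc
Gbp5: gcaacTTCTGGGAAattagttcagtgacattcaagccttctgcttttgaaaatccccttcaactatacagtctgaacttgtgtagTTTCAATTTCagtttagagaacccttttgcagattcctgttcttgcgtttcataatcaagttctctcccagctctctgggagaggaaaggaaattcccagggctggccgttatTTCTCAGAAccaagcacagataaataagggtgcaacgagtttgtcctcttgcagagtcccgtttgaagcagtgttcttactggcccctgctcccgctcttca
Gbp7: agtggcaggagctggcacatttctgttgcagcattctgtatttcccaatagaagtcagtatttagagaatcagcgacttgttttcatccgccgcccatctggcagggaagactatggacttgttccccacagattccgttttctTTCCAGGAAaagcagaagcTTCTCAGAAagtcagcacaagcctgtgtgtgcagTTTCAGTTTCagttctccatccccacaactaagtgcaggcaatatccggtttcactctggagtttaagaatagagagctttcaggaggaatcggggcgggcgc

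Upstream of the Gbp genes, the path from the IFN-γ receptor to IRF1 was measured with 15 genes, of which 14 were tested. By limma, 1 of these fell in *Irf1-/-* HSCs and 0 rose, and the median over the 14 was 0.05 on the log2 scale. At an unadjusted p under 0.05, 3 were lower and 4 higher, beside 1404 lower and 1459 higher of all 17404 tested genes. With edgeR and DESeq2, 1 was called lower and 0 higher by each. Batf2, a partner of IRF1 in macrophages, had normalized counts of 519, 366 and 440.2 in *Irf1-/-* HSCs and 1049, 859 and 927 in WT HSCs. The genotypes did not overlap, and Batf2 was called lower (log2 fold change −1.10, limma adjusted p = 0.00193). Without the intensity trend, the limma adjusted p was 0.103, so the call was lost. The receptor genes Ifngr1 (log2 fold change 0.27, limma adjusted p = 0.104) and Ifngr2 (0.35, 0.172) and the kinases Jak1 (0.17, 0.40) and Jak2 (−0.01, 0.980) were not called. Ifng itself had 0 reads in 5 libraries, which allows up to 3 reads in each by counting error alone, and 6 reads in WT replicate 3.

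Partners of the Gbp proteins were read from 4 further lists. The immunity-related GTPases (IRG), which load onto the same vacuoles, had 8 of 10 tested genes lower and a median log2 fold change of −1.11. These were Irgm2, Igtp, Iigp1, Tgtp1, Tgtp2, Gm12250, Gm12185 and Ifi47, and Ifi47 was the most abundant per kb (log2 fold change −1.15, limma adjusted p = 7.65e-06). Irgm2, Igtp and Tgtp2 lost their calls without the intensity trend, and Irgm2 (−0.64) also fell short of the fold threshold without *Irf1-/-* replicate 4 (−0.57) or WT replicate 2 (−0.57). The ATG conjugation machinery, which places Gbp and IRG proteins on vacuoles, had 0 of 11 genes called by limma, edgeR or DESeq2, with 1 lower and 0 higher at an unadjusted p under 0.05. Its median log2 fold change was 0.02, and its most abundant gene per kb was Map1lc3b (0.18, limma adjusted p = 0.371). The enzymes that prenylate proteins such as Gbp2 and Gbp5 had 0 of 6 genes called by these tools, 1 lower and 0 higher at an unadjusted p under 0.05, and a median log2 fold change of −0.02. Fnta was the most abundant of them per kb (0.03, limma adjusted p = 0.940).

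Among 9 caspase and inflammasome partners of Gbp proteins, 1 was lower and 0 higher by limma, edgeR and DESeq2. At an unadjusted p under 0.05, 3 were lower, beside 8.07% of all tested genes, and 0 were higher. The median log2 fold change was −0.27. Casp1, the inflammatory caspase that inflammasomes activate, had normalized counts of 287, 290.3 and 412 in *Irf1-/-* HSCs and 2031, 2008 and 2058 in WT HSCs. The genotypes were far apart, and its log2 fold change was −2.64 (limma adjusted p = 1.89e-07). Gsdmd, the pore-forming protein cut by caspases, was the most abundant gene of this list per kb and was not called (−0.20, limma adjusted p = 0.279).

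Relatives with a large GTPase domain were read from a list of 13 genes, 11 of them in the table. Of 9 tested, 1 was lower and 0 higher by limma, edgeR and DESeq2, and the median log2 fold change was 0.01. At an unadjusted p under 0.05, 3 were lower, beside 8.07% of all tested genes, and 0 were higher. Mx1, an antiviral GTPase, had normalized counts of 67.2, 118 and 85.1 in *Irf1-/-* HSCs and 179, 197 and 258 in WT HSCs. The groups did not overlap, and the log2 fold change was −1.24 (limma adjusted p = 0.0368). The Mx1 call was lost without *Irf1-/-* replicate 2 (limma adjusted p = 0.130), *Irf1-/-* replicate 4 (0.121), WT replicate 2 (0.0635), WT replicate 3 (0.109) or WT replicate 4 (0.0737), without the low-count filter (0.0562) and without the intensity trend (0.199). Mfn2, a mitochondrial fusion GTPase, was the most abundant per kb (log2 fold change 0.06, limma adjusted p = 0.851). Gvin1 and Gm4070 were at 0 reads in all libraries.

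Genes outside the family were ranked by the Pearson correlation of their log2 values with the mean log2 value of the 10 members over the 6 libraries. That mean was 8.84, 8.95 and 9.17 in *Irf1-/-* HSCs and 10.46, 11.04 and 11.09 in WT HSCs. The most alike were Rnaseh2b (r = 0.995), Dtd2 (0.993), Nudt1 (0.993), Ly75 (0.991) and Eldr (0.991), and 109 of 17394 genes had r above 0.95. Ly75, an endocytic receptor, was called lower, with normalized counts of 1200.4, 1282 and 1356 in *Irf1-/-* HSCs and 1979, 2143 and 2106 in WT HSCs (log2 fold change −0.70, limma adjusted p = 0.00228). Its call was lost without the intensity trend (limma adjusted p = 0.0838). The other 4 were not called, with log2 fold changes from −0.55 for Eldr to −0.28 for Nudt1. These genes had the shape of the Gbp profile over libraries, but smaller differences than its median of −1.43.

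Markers of other cells that the sort could hold were set beside the Gbp results. Of 11 HSC markers 1 was higher in *Irf1-/-* HSCs, Fgd5 (log2 fold change 0.83, limma adjusted p = 9.13e-05), and 0 were lower by limma, edgeR or DESeq2. At an unadjusted p under 0.05, 6 HSC markers were higher and 1 was lower, beside 1459 higher and 1404 lower of all 17404 tested genes. The median log2 fold change of the 11 was 0.25. Cd48, the marker the sort excluded, and Flt3, a progenitor marker that was not part of the stated sort, summed to 3873, 4755 and 3773.5 in *Irf1-/-* HSCs and to 2913, 2056 and 3224 in WT HSCs. Flt3 was the more abundant per kb and was called higher (0.67, limma adjusted p = 0.0407), while Cd48 was not called. The Flt3 call was lost without *Irf1-/-* replicate 2 (limma adjusted p = 0.0922), *Irf1-/-* replicate 3 (0.127), *Irf1-/-* replicate 4 (0.0747) or WT replicate 3 (0.117). Megakaryocyte markers summed to 40363, 24765 and 35754 in *Irf1-/-* HSCs and to 47319, 60305 and 45164 in WT HSCs, and 2 of 5 were lower. These were Pf4, the most abundant of them per kb (−1.11, limma adjusted p = 0.00334), and Gp1bb (−0.90, 0.00320). Erythroid markers summed to 925, 622 and 957 in *Irf1-/-* HSCs and to 1436, 1319 and 1200.6 in WT HSCs. Of 2 tested, 1 was lower, the more abundant one per kb, Klf1 (−0.72, limma adjusted p = 0.0361), and 4 globin genes, Hba-a1, Hba-a2, Hbb-bs and Hbb-bt, were listed at 0 in all libraries. The Klf1 call was lost without *Irf1-/-* replicate 2 (limma adjusted p = 0.0583), *Irf1-/-* replicate 3 (0.070), WT replicate 2 (0.117) or WT replicate 3 (0.109). Without the intensity trend, Fgd5, Flt3, Pf4, Gp1bb and Klf1 all lost their calls (limma adjusted p from 0.0511 to 0.358). The part of these markers in the Gbp difference was not tested.

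Neutrophil markers, for which WT replicate 4 stood apart, had 0 of 6 genes called by limma, edgeR or DESeq2 and 0 at an unadjusted p under 0.05. Their most abundant gene per kb, S100a8, had 1033 normalized counts in WT replicate 4 and at most 110.0 in any other library. Without WT replicate 4, 7 of 10 Gbp members were still called lower, and Gbp9 was lost. The same tools called 0 of 5 B cell, 0 of 3 T cell, 0 of 4 NK cell, 0 of 7 macrophage, 0 of 5 dendritic cell and 0 of 4 endothelial markers. At an unadjusted p under 0.05, 1 NK cell marker was lower and 3 endothelial markers were higher, and the B cell, T cell, macrophage and dendritic cell lists had 0. Over all 17404 tested genes, 1404 were lower and 1459 higher at that p. Endothelial markers, of which Pecam1 was the most abundant per kb, summed to 7326, 6942 and 8183 in *Irf1-/-* HSCs and to 5321, 5327 and 6132 in WT HSCs, and their part in the Gbp difference was not tested.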

How the data were processed

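RNA-seq was analysed from 6 libraries, 3 per genotype. The authors sequenced Nextera XT libraries, used Trim Galore for trimming, HISAT2 for alignment to mm39 and htseq-count for gene counts, and divided the counts by DESeq2 size factors. The deposited values are therefore a signal, gene counts divided by a size factor. Tested on the values, 100% of them were whole multiples of 1 read within 0.01, so whole reads were recovered, 43138521 to 59658080 per library. No 2 libraries of a genotype agreed within counting error, as copies of 1 library would.

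Groups came from the sample labels. Values were analysed as log2(normalized count + 1) with limma 3.58.1 (lmFit, eBayes with intensity trend) in R 4.3.3, for genes with a mean of at least 10, with Benjamini-Hochberg adjustment over 17404 genes. A call needed both an adjusted p under 0.05 and a log2 fold change of more than 0.58 in size. Reads were tested with edgeR 4.0.16 (quasi-likelihood, TMM) and DESeq2 1.42.0, and limma, edgeR and DESeq2 were each tested on simulated data. DESeq2 was run with its own size factors and no prior on the fold change. Exact two-sided permutation tests used scipy 1.17.1, and coding sequences were aligned with biopython 1.88. Alternatives were other pseudocounts and filters, limma without trend, quantile and median scaling, a replicate block, each library left out, the count models and no fold threshold.

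The genes named are all Gbp genes, Irf1, for each list its called genes and its most abundant one per kb, the nearest neighbors of each Gbp cluster, and the 5 genes most correlated with the family. The IFN-γ receptors, Jak2 and some markers were named after their values were seen. Members and lists were chosen with earlier results of these data known. Gene models and lengths came from GENCODE vM1 and promoters from RefSeq GRCm38.p6, matched by symbol only, since the files use mm39. Protein sequences were not used here, and some genes of the lists are not reported here.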

Additional observations from a re-analysis of the deposited data

How the results depend on the processing

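All 10 Gbp members were lower in *Irf1-/-* HSCs in each of the 17 alternatives. Of the 8 called members, 3 (Gbp2, Gbp8 and Gbp10) kept the call in all 17, and 6 kept it in all but limma without the trend. Without the trend, which gives all genes 1 prior variance, 3 members and 33 genes in all were lower and 7 genes higher, beside 8, 166 and 167 with it. Gbp9 was also lost under quantile normalization (limma adjusted p = 0.0659). With the adjusted p alone, 260 genes were lower and 301 higher, and DESeq2 called 295 higher. Leaving out each library in turn gave 6 to 8 members lower, 0 higher, 105 (without WT replicate 3) to 265 (without WT replicate 4) genes lower and 83 (without *Irf1-/-* replicate 4) to 304 (without WT replicate 4) higher. Without WT replicate 3 the higher calls numbered 102, and with *Irf1-/-* replicate 2 left out, 104. The cause of these differences was not tested. The log2 fold change of Irf1 stayed between −0.31 and −0.18 when each library was left out.

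Log2 fold changes of 4 genes changed sign, none of them called. Leaving out each library gave −1.76 to 0.00603 for Gbp2b, above 0 only without *Irf1-/-* replicate 3, −0.0320 to 0.0795 for Fnta, −0.0745 to 0.0277 for Jak2 and −0.0496 to 0.14 for Mfn2. Fnta was at −0.00592 with median centring, and Jak2 at 0.0350 with quantile normalization and 0.00581 with edgeR without the filter. Outside the family, Batf2, Igtp, Irgm2, Tgtp2, Mx1, Ly75, Pf4, Gp1bb, Klf1, Flt3 and Fgd5 lost their calls without the trend. Eldr passed both thresholds under quantile normalization (limma adjusted p = 0.0491).

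Whether the shared replicate numbers pair the libraries was not settled by the values. Deviations from the group means correlated at −0.094, 0.246 and 0.147 within numbers 2, 3 and 4. *Irf1-/-* replicates 3 and 4 each correlated best with the WT library of the same number, whereas *Irf1-/-* replicate 2 correlated best with WT replicate 4 (0.251). With the replicate block, 8 members and 196 genes in all were called lower and 219 higher, beside 8, 166 and 167 without it.

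With 3 mice per genotype, members with few reads in *Irf1-/-* HSCs, Gbp10 and Gbp11, have wide intervals. Read sharing leaves the separate values of Gbp6 and Gbp10 uncertain, and a whole-body allele and sorted bulk cells leave the affected cells unresolved.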
